A study of Mus musculus with 55 samples.

Results

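Microglia are the resident macrophages of the brain, and in the undisturbed brain they keep a set of genes on that other brain cells hardly use. The 9 genes described here were chosen from that set by symbol, namely P2ry12, Tmem119, Cx3cr1, Csf1r, Aif1 and Trem2, together with C1qa, C1qb and C1qc, which code for the chains of complement component C1q. They are 9 of the 18283 genes tested, and all 9 passed the filter on low counts. Their levels were read in bulk RNA of the dissected ventral dentate gyrus of 54 male adult mice, 1 library per mouse except for 1 mouse sequenced in 2 runs that were summed.

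The mice fell into 6 groups by housing and by response to chronic social defeat stress (CSDS), in which an intruder mouse is put with a series of aggressive CD-1 residents. Mice raised in standard housing (SH), in small groups in plain cages, were unstressed controls (n = 10), resilient (RES, n = 7) or susceptible (SUS, n = 10). Mice raised in an enriched environment (EE), in large groups with tunnels, objects and running wheels, were controls (n = 9), RES (n = 9) or SUS (n = 9). RES and SUS mice had all been defeated and were told apart only afterwards, by a social interaction test, so the 2 labels describe an outcome and not an assigned treatment. The methods name C57BL/6J mice as the intruders, and the labels give no strain, transgene, drug or cell sort.

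Microglia extend fine processes that survey the tissue, and each gene here serves a step of that work. P2ry12 is a purinergic receptor that draws processes towards nucleotides released by injured or active cells, Cx3cr1 is the receptor for the neuronal chemokine Cx3cl1, and Csf1r is the receptor for Csf1 and Il34 on which microglial survival depends. Tmem119 is a membrane protein used as a marker of microglia, Aif1 codes for the cytoskeletal protein Iba1 used to stain them, and Trem2 is a lipid-sensing receptor that signals through Tyrobp. C1q is the recognition part of the classical complement pathway, is built from all 3 of its chains in equal number, and tags synapses and debris for removal.

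The 3 C1q genes lie side by side on the minus strand of chromosome 4 (GRCm38), within 18675 bases at chr4:136880129-136898803. In the annotation (GENCODE M21) C1qa is ENSMUSG00000036887, C1qb is ENSMUSG00000036905 and C1qc is ENSMUSG00000036896, each with 3 exons and with no other annotated gene overlapping. P2ry12 (ENSMUSG00000036353), on the minus strand of chromosome 3 at chr3:59216272-59262871, lies across from Med12l on the other strand. The other members are Tmem119 (ENSMUSG00000054675) on chromosome 5, Cx3cr1 (ENSMUSG00000052336) on chromosome 9, and Aif1 (ENSMUSG00000024397) and Trem2 (ENSMUSG00000023992) on chromosome 17, besides Csf1r (ENSMUSG00000024621), which is on none of these chromosomes. Cx3cr1 and Csf1r overlap annotated genes on both strands, so that read pairs in shared exons of 1 strand were left uncounted.

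The promoters below are shown because C1qb and C1qc were the pair of genes that followed each other most closely across mice, while P2ry12 had the lowest correlation with them over the 54 mice. Each is the 250 bases before the gene's start in RefSeq (GRCm38.p6, minus strand, written 5′ to 3′), and 6 of the 9 genes have an entry in that table. The capitals mark GGAAGT, the core to which ETS factors such as the microglial factor Spi1 (PU.1) can bind, or its reverse complement ACTTCC.
C1qb, chr4:136886201-136886450: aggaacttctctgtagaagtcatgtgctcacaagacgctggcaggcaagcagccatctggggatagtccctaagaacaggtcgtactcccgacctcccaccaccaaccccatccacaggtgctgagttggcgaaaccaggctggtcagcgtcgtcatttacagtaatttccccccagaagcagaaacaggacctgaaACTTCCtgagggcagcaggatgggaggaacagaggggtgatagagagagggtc
C1qc, chr4:136892915-136893164: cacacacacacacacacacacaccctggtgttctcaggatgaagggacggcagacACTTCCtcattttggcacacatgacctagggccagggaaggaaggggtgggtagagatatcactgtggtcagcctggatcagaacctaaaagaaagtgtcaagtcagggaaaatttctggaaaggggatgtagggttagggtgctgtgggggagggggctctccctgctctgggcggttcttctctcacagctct
P2ry12, chr3:59262986-59263235: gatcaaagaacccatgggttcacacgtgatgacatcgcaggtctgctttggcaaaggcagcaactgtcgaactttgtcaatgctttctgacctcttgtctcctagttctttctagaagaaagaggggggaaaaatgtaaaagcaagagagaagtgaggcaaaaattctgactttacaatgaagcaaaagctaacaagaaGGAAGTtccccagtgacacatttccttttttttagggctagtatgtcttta
The match began 53 bases before the start in C1qb and 195 bases before it in C1qc, on the strand opposite to the gene in both, and 51 bases before the start on the gene's own strand in P2ry12. These 3 of the 6 genes in the table held the 6 letters on either strand, as did 19.7% of the 32851 promoters in it. A match of 6 letters is a description of the sequence and not a site.

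Libraries held 16760009 to 24426804 gene counts in the mice sequenced once and 45872357 in EE control mouse 9, which was sequenced in 2 runs. Levels are given as CPM, which are counts scaled to the library size, here after TMM scaling. At this depth even the lowest member, Aif1, had 67 to 218 read pairs per mouse, and Csf1r had 1643 to 4446. Within a group the coefficient of variation between mice ran from 6.45% for Cx3cr1 to 19.0% for C1qb, against 2.97% and 3.81% from the counting of reads alone. Without EE SUS mouse 7, described next, that of C1qb was 11.7%, and Aif1 had the highest, at 14.6%. The samples differed in their neighbouring tissue: the summed level of 8 choroid plexus genes ran from 18.2 to 985 CPM and that of 6 thalamic genes from 103 to 607 CPM over the 54 mice.

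EE SUS mouse 7 stood apart in these genes and is shown separately throughout. It had the highest level of the 54 mice for 8 of the 9 members, with P2ry12 as the exception at rank 19. Its C1qa was 82.4 CPM, against 33.3 to 49.2 CPM in the other 53 mice. Its C1qb was 68.1 CPM, against 24.5 to 39.5 CPM. Its C1qc was 67.0 CPM, against 29.0 to 44.4 CPM. The C1q genes of this mouse thus lay above every other mouse, at 1.95, 2.15 and 1.84 times the mean of the other 8 EE SUS mice for C1qa, C1qb and C1qc. Its library was ordinary in size, with 20302576 gene counts and a TMM factor of 1.01. Group comparisons with EE SUS mice that came under an unadjusted p of 0.05 are given below with and without it.

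The 9 genes were expressed at similar levels in all 6 groups. Per kilobase of the longest principal transcript, the level over the 54 mice was highest for C1qa, at 40.3 ± 6.51 CPM per kb (SD, n = 54), followed by C1qc at 30.2 ± 4.47 and C1qb at 30.0 ± 5.60 CPM per kb. C1qc and C1qb did not differ beyond their spread on this length. The 3 levels without EE SUS mouse 7 were 39.6 ± 3.68, 29.8 ± 2.77 and 29.4 ± 3.34 CPM per kb (SD, n = 53). Csf1r followed at 22.0 ± 1.84, P2ry12 at 16.4 ± 1.82, Cx3cr1 at 11.8 ± 0.763 and Tmem119 at 9.23 ± 0.901 CPM per kb. Trem2 and Aif1 were lowest, at 8.49 ± 0.991 and 5.06 ± 0.790 CPM per kb, and Tmem119 and Trem2 did not differ beyond their spread. The order depends on the length used: over all annotated exons C1qc came to 18.8 CPM per kb and so below C1qb, whose length is the same on both measures, and Trem2 came to 1.87 and Aif1 to 2.89 CPM per kb.

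For C1qa, which codes for the A chain, the lowest, median and highest mouse were 34.1, 39.9 and 44.1 CPM in SH controls, 35.0, 40.0 and 48.9 CPM in SH RES and 33.3, 39.6 and 49.2 CPM in SH SUS. In EE they were 39.4, 41.7 and 49.2 CPM in controls, 37.1, 39.3 and 45.7 CPM in RES and 38.7, 42.5 and 82.4 CPM in SUS. All 6 ranges overlapped, and without mouse 7 the EE SUS range ended at 46.2 CPM, inside that of the EE controls.

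For C1qb, which codes for the B chain, the same 3 values were 24.5, 31.4 and 36.7 CPM in SH controls, 27.0, 33.9 and 36.8 CPM in SH RES and 28.9, 30.2 and 38.3 CPM in SH SUS. In EE they were 28.0, 31.7 and 38.4 CPM in controls, 26.3, 30.8 and 39.5 CPM in RES and 25.6, 31.4 and 68.1 CPM in SUS. The medians of the 6 groups thus lay between 30.2 and 33.9 CPM, and the EE SUS maximum was 38.7 CPM without mouse 7.

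For C1qc, which codes for the C chain, they were 29.0, 35.6 and 38.9 CPM in SH controls, 32.3, 36.2 and 40.3 CPM in SH RES and 31.1, 34.9 and 42.2 CPM in SH SUS. In EE they were 32.4, 34.7 and 44.4 CPM in controls, 32.4, 34.2 and 41.4 CPM in RES and 32.0, 37.7 and 67.0 CPM in SUS. EE SUS had the highest median, but its range without mouse 7 ended at 40.7 CPM, below the highest EE control.

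For P2ry12 they were 36.2, 39.2 and 49.7 CPM in SH controls, 34.5, 37.5 and 44.2 CPM in SH RES and 29.8, 36.5 and 46.1 CPM in SH SUS. In EE they were 36.2, 39.2 and 51.0 CPM in controls, 31.4, 39.0 and 40.4 CPM in RES and 34.8, 37.7 and 42.5 CPM in SUS. Both control groups began at 36.2 CPM, and 14 of the 35 defeated mice lay below that level while the other 21 lay within the control range.

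The other 5 genes are given by their range. Over the 54 mice Csf1r ran from 88.5 to 142 CPM, Cx3cr1 from 45.2 to 61.5 CPM, Tmem119 from 16.9 to 26.6 CPM, Trem2 from 7.08 to 14.1 CPM and Aif1 from 3.35 to 6.71 CPM, each with EE SUS mouse 7 at the top. Without that mouse the highest values were 119, 59.2, 24.8, 11.0 and 5.76 CPM. For each of the 9 genes the ranges of any 2 groups overlapped, which held in 135 of 135 pairs. How often this holds over all genes was not counted, so it is not read as a trait of these genes.

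The order of the group means was not the same from gene to gene. EE SUS had the highest mean for Csf1r, Aif1 and the 3 C1q genes, EE controls for Cx3cr1, Tmem119 and Trem2, and SH controls for P2ry12. Without EE SUS mouse 7 the EE SUS group had the highest mean for no gene: EE controls were then highest for Csf1r and the 3 C1q genes, and EE RES for Aif1. With all 54 mice, no neighbours in any of these orders differed by more than 1 SD, taken as the larger SD of the 2 groups. Neither did the highest and the lowest group of any gene. This SD includes EE SUS mouse 7 where EE SUS was 1 of the 2 groups. The widest gaps on this measure were 0.998 SD for Cx3cr1, between EE controls (54.7 ± 1.92 CPM, SD, n = 9) and SH controls (51.6 ± 3.11 CPM, n = 10), and 0.990 SD for Tmem119, between EE controls (21.8 ± 2.34 CPM) and SH RES (19.5 ± 1.87 CPM, n = 7). Without EE SUS mouse 7, the gap between highest and lowest group in pooled within-group SDs was 1.26 for Tmem119. It was 0.933 for C1qa and under 1 for every other member.

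**Figure D1:**
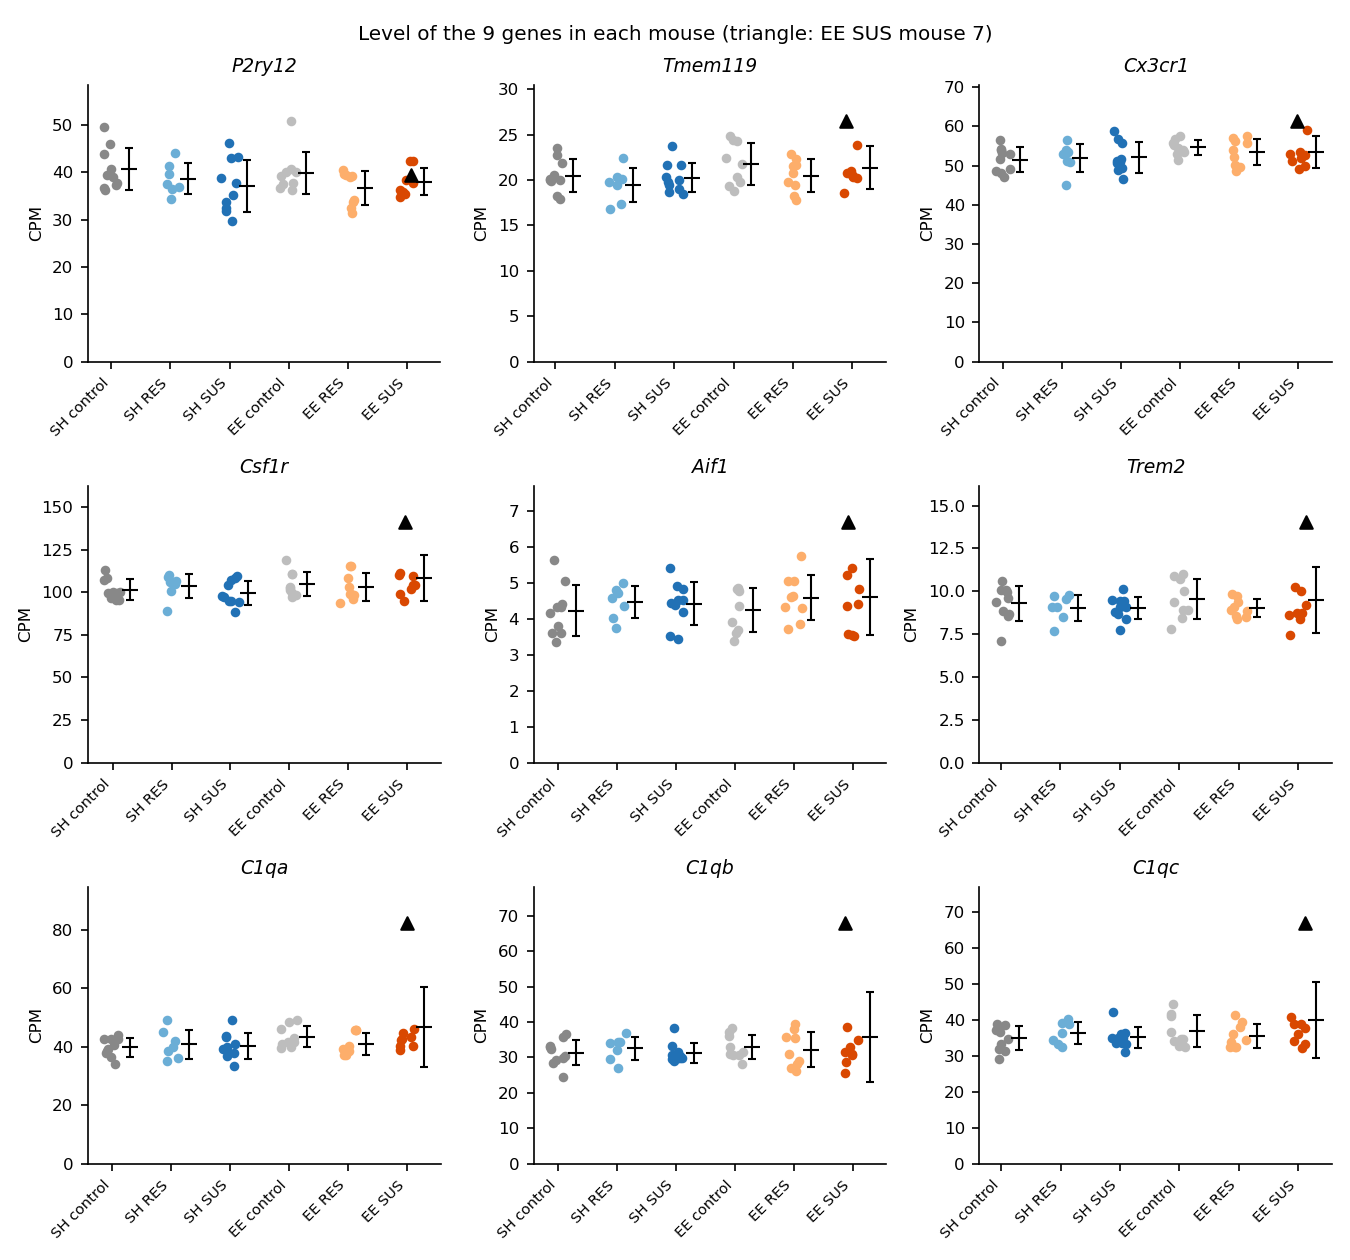
Level of each of the 9 genes (y axis, TMM-scaled CPM, from 0) in each mouse of the 6 groups (x axis), with the mean and SD beside each group and EE SUS mouse 7 as a triangle. The ranges of all groups overlap, and the triangle lies on top for every gene but P2ry12.

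The first question was whether any of the 6 groups differed. In the test for any difference among them, 0 of the 9 genes passed an adjusted p of 0.05 (edgeR quasi-likelihood test, Benjamini-Hochberg over all genes), against 0.35% of all genes tested. At an unadjusted p of 0.05 the count was 0 by edgeR, limma and DESeq2 alike, against 11.1% of all genes by edgeR. The smallest adjusted p was 0.53, for C1qa. In bulk tissue, fewer microglia and less RNA per microglial cell cannot be told apart, and the same holds for their opposites.

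The effect of housing was asked in mice of the same phenotype. Averaged over phenotypes, 0 of 9 genes passed the adjusted threshold for EE minus SH, against 2.42% of all genes, and limma and DESeq2 called 0 as well. At an unadjusted p of 0.05 edgeR, limma and DESeq2 each counted 3 genes, against 17.6% of all genes by edgeR. C1qa was 0.11 higher in EE on the log2 scale (SE 0.05, unadjusted p = 0.0316, adjusted p = 0.23), Tmem119 0.08 higher (SE 0.04, unadjusted p = 0.0345, adjusted p = 0.24) and Cx3cr1 0.05 higher (SE 0.03, unadjusted p = 0.0368, adjusted p = 0.24). In percent, the intervals of 95% for these 3 reached from 0.719 to 16.1, from 0.418 to 11.2 and from 0.243 to 7.65. Without EE SUS mouse 7 the differences were 0.07, 0.07 and 0.05 on the log2 scale. In that fit 0 of 9 genes remained under an unadjusted p of 0.05, against 18.2% of all genes. In this comparison 8 of 9 members were higher in EE, with a median difference of 0.05 against 0.00 over all genes, of which 53.0% were higher.

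Among controls, EE minus SH called 0 of 9 genes, against 0.00547% of all genes, with 0 under an unadjusted p of 0.05 by any of the 3 tools, against 5.02% of all genes. In the fit without EE SUS mouse 7, C1qa (log2 difference 0.12, unadjusted p = 0.042 by edgeR) and Cx3cr1 (0.08, unadjusted p = 0.0441) came under 0.05 before adjustment. This was 2 of 9 genes, against 4.99% of all genes in that fit. Among RES mice, 0 of 9 genes were called for EE minus SH, against 0.273% of all genes, and 0 were under an unadjusted p of 0.05 by any tool, against 16.0% of all genes. The RES comparison therefore held the second largest background of unadjusted calls, after the average over phenotypes, and no member among them.

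Among SUS mice, EE minus SH called 0 of 9 genes, against 0.00547% of all genes. At an unadjusted p of 0.05 the count was 3 by edgeR and DESeq2 and 2 by limma, against 7.36% of all genes by edgeR. C1qa was 0.21 higher in EE SUS than in SH SUS (SE 0.09, unadjusted p = 0.0156, adjusted p = 0.57, edgeR), C1qc 0.18 higher (SE 0.08, unadjusted p = 0.0315, adjusted p = 0.65) and Csf1r 0.12 higher (SE 0.05, unadjusted p = 0.0213, adjusted p = 0.62). All 3 rested in large part on 1 mouse. Without EE SUS mouse 7 the same log2 differences were 0.07, 0.06 and 0.07, with unadjusted p of 0.24, 0.367 and 0.131. In that fit 0 of 9 genes were left under 0.05, against 7.69% of all genes. C1qb moved in the same way, from a log2 difference of 0.20 to 0.03. The number of members higher in EE SUS went from 9 of 9 to 7 of 9, and their median difference from 0.08 to 0.03.

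Defeat was examined across both housings. Defeated minus unstressed mice gave 0 of 9 called genes, against 0.0438% of all genes, by edgeR, limma and DESeq2. At an unadjusted p of 0.05 each tool counted 1 gene, against 4.81% of all genes by edgeR, and in each it was P2ry12. P2ry12 was 0.10 lower in defeated mice on the log2 scale (SE 0.04, unadjusted p = 0.0249, adjusted p = 0.99), or 6.61% lower, with a 95% interval of the difference of -11.99% to -0.892%. The difference was of the same size without EE SUS mouse 7, at -0.10, and was -0.07 without EE control mouse 7, the mouse with the highest P2ry12. It came under an unadjusted p of 0.05 in 62 of 65 other settings. Of these settings 54 left out 1 mouse each and the rest reused the same mice, so the count adds no separate support. Those in which it did not included the fit with choroid plexus and thalamic scores as covariates. In the same comparison all 5 genes of the red cell list rose, by a median of 1.09 on the log2 scale, and the part of blood in the P2ry12 difference was not tested.

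Within each housing the phenotypes were set against their controls and against each other. SH SUS minus SH control called 0 of 9 genes, against 0.0328% of all genes, with 0 under an unadjusted p of 0.05 by edgeR and DESeq2 and 1, P2ry12, by limma, against 2.78% of all genes by edgeR. SH RES minus SH control called 0, against 0.0% of all genes, with 0 under an unadjusted p of 0.05 by the 3 tools, against 3.51%. SH SUS minus SH RES likewise called 0, against 0.0%, with 0 unadjusted by the 3 tools, against 4.88%. Of these SH comparisons the largest difference was that of P2ry12, 0.13 lower in SUS than in controls.

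In EE, SUS minus control called 0 of 9 genes, against 0.0% of all genes, with 0 under an unadjusted p of 0.05 by the 3 tools, against 7.9% of all genes. RES minus control called 0, against 0.0%, with 0 unadjusted by the 3 tools, against 7.91%. SUS minus RES called 0, against 0.0%, with 1 gene, C1qa, under an unadjusted p of 0.05 by edgeR and DESeq2 and 0 by limma, against 3.52% of all genes. C1qa was 0.19 higher in EE SUS than in EE RES (SE 0.09, unadjusted p = 0.0318, adjusted p = 0.9997), and without EE SUS mouse 7 it was 0.05 higher (unadjusted p = 0.413). The directions within EE turned with that mouse too: 5 of 9 members were higher in SUS than in controls with it and 2 of 9 without it, and 9 of 9 were higher in SUS than in RES mice with it and 5 of 9 without it.

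Whether the effect of defeat, or the gap between SUS and RES mice, differed between housings was tested directly. The interaction of defeat and housing called 0 of 9 genes, against 0.0% of all genes, with 0 under an unadjusted p of 0.05 by the 3 tools, against 6.47%. The interaction of the SUS-RES gap and housing called 0, against 0.0%, with 0 unadjusted by the 3 tools, against 4.84%. Its median over the members was 0.11 on the log2 scale and 0.04 without EE SUS mouse 7, while the median over all genes was -0.00.

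A call that fails does not show that groups were alike, so the intervals are given. Over the 9 genes and the 9 pairs of groups compared, the log2 differences ran from -0.13 to 0.21, and 77 of the 81 intervals of 95% spanned 0. The 4 that did not were C1qa, C1qc and Csf1r in EE SUS against SH SUS and C1qa in EE SUS against EE RES. As a whole the intervals reached from 17.8% lower to 32.2% higher, both for C1qb. They were narrowest for Cx3cr1, from 7.91% lower to 12.5% higher.

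**Figure D2:**
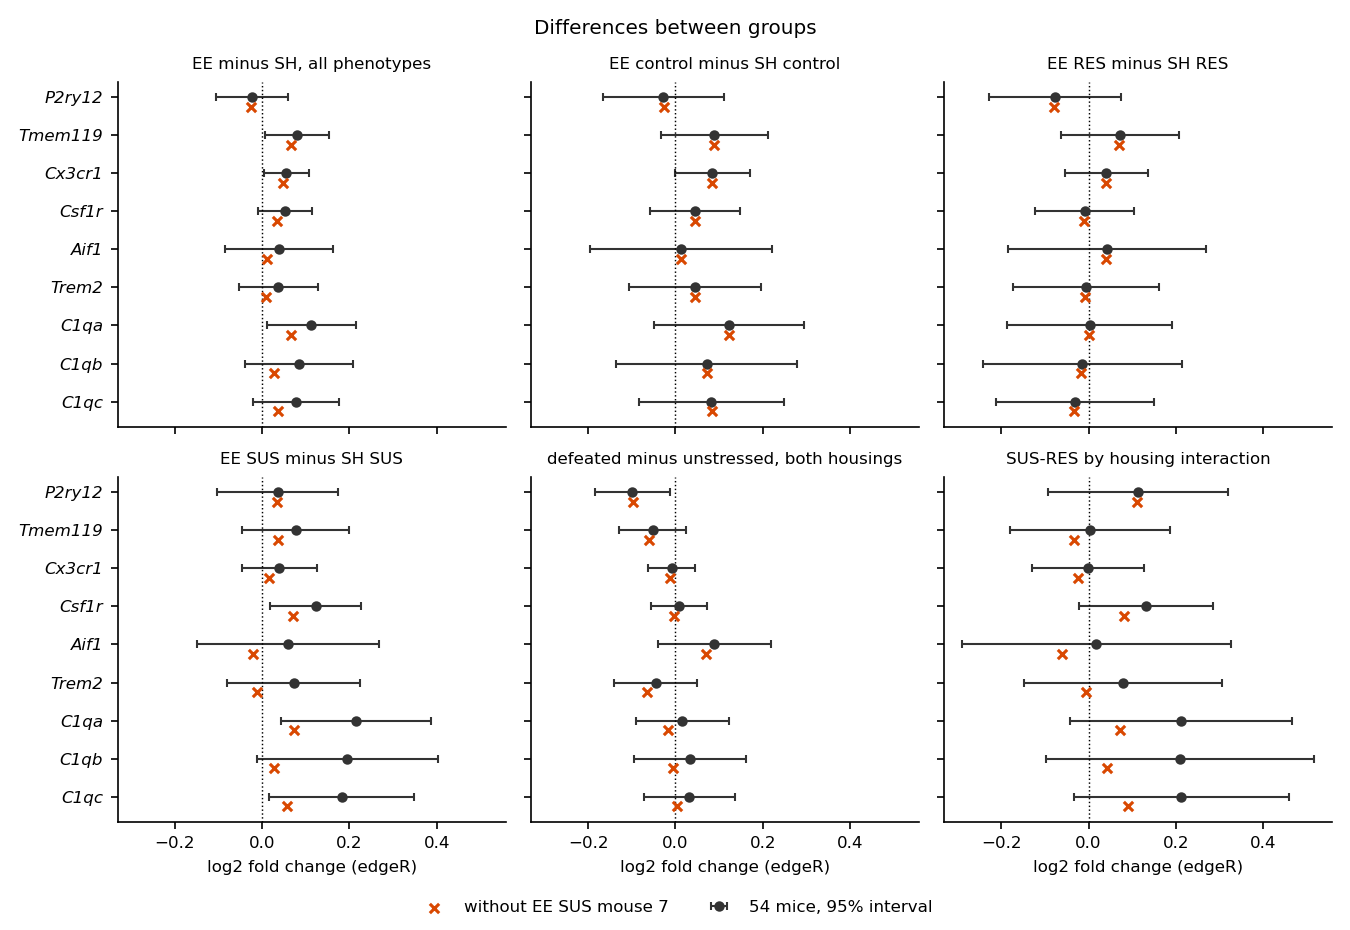
Log2 fold change (x axis) of each gene (y axis) in 6 comparisons, from the edgeR fit over 54 mice with 95% intervals (circles), and from the fit without EE SUS mouse 7 (crosses). The C1q genes in EE SUS minus SH SUS shift from 0.18 to 0.21 with all mice to 0.03 to 0.07 without mouse 7, while the RES comparison does not move.

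The 3 C1q genes followed each other from mouse to mouse. Over 54 mice, Pearson's r of log2 CPM was 0.86 for C1qa and C1qb, 0.91 for C1qa and C1qc and 0.91 for C1qb and C1qc, with Spearman's rho of 0.72, 0.82 and 0.83. For each the permutation p was 1e-05, the smallest that 100000 permutations can give (adjusted over the 36 pairs of members, 2.57e-05 for r and 3e-05 for rho). Without the 2 mice farthest from the median, EE SUS mouse 7 among them, r was 0.76, 0.85 and 0.81. Taken as deviations from the group means, r was 0.86, 0.90 and 0.91, so that the relation was as close within groups as over all mice.

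The ratios of the chains varied less than their levels. Per length of the principal transcript, C1qb stood to C1qc at a median ratio of 0.988 over the 54 mice, with a range from 0.857 to 1.14, and at 1.12 in EE SUS mouse 7. Over the length of all annotated exons, which of these 3 genes is longer for C1qc only, the same median was 1.59. C1qa stood to C1qc at a median of 1.34, from 1.10 to 1.48, and at 1.42 in that mouse. The SD of the log2 ratio was 0.08 for C1qa to C1qc, 0.09 for C1qb to C1qc and 0.11 for C1qa to C1qb, where counting alone gives 0.07, 0.08 and 0.07. C1qa, C1qb and C1qc themselves varied with an SD of 0.19, 0.22 and 0.18 on the log2 scale. In the 53 mice without EE SUS mouse 7 these were 0.13, 0.16 and 0.13, and the SDs of the ratios were 0.08, 0.09 and 0.11. The mean ratio of C1qb to C1qc was between 0.981 ± 0.101 (EE SUS, SD, n = 9) and 0.998 ± 0.080 (EE RES, n = 9) in all 6 groups, a gap well inside the spread, and 0.963 ± 0.091 (n = 8) in EE SUS without mouse 7.

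**Figure D3:**
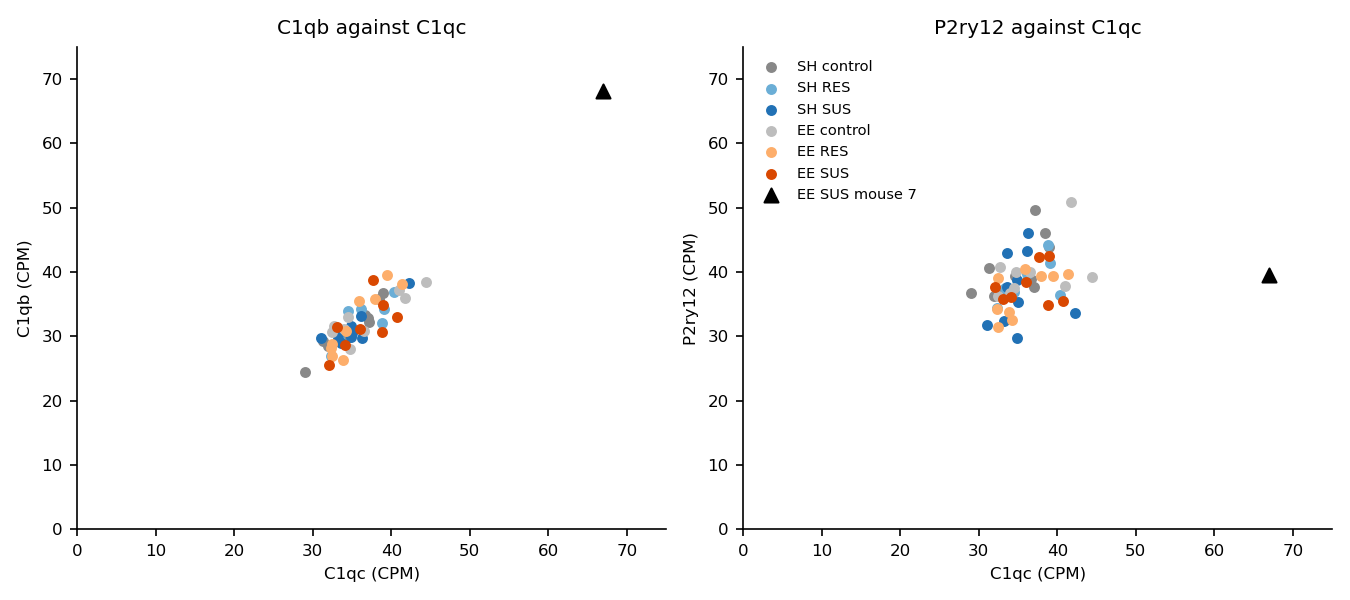
C1qb (left) and P2ry12 (right) against C1qc in each of the 54 mice, in CPM on both axes, coloured by group, with EE SUS mouse 7 as a triangle. C1qb and C1qc lie along 1 line that mouse 7 extends, and P2ry12 of that mouse, at 39.5 CPM, lies in the middle of the other mice.

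Csf1r was the member closest to the C1q genes, with r of 0.81, 0.82 and 0.81 to C1qa, C1qb and C1qc, and of 0.71, 0.72 and 0.72 without EE SUS mouse 7. Tmem119 followed with r of 0.63 to 0.67 to the 3 C1q genes. P2ry12 was least like them over the 54 mice, with r of 0.29 to C1qa, 0.30 to C1qb and 0.30 to C1qc (adjusted permutation p = 0.0387, 0.0321 and 0.0297), which came to 0.37, 0.37 and 0.38 without EE SUS mouse 7. In those 53 mice it was still the lowest member with C1qb and C1qc, close to Aif1 (0.38 and 0.47) and Trem2 (0.38 and 0.41), while with C1qa Aif1 (0.21) and Trem2 (0.34) were lower. Its closest members were Csf1r (r = 0.57) and Trem2 (r = 0.50). Aif1 and P2ry12 had the lowest r of the 36 pairs, 0.11 (adjusted permutation p = 0.445).

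Over all 36 pairs the median r was 0.55, and 0.42 without EE SUS mouse 7. The pairs of Trem2 with C1qa, C1qb and C1qc leaned most on that mouse, from 0.58, 0.60 and 0.62 to 0.34, 0.38 and 0.41. All mice share their tissue dissection and library type, no batch is given in the sources used here, and Aif1 and Trem2 have the fewest reads, with counting errors of 10.4% and 7.14% per mouse.

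**Figure D4:**
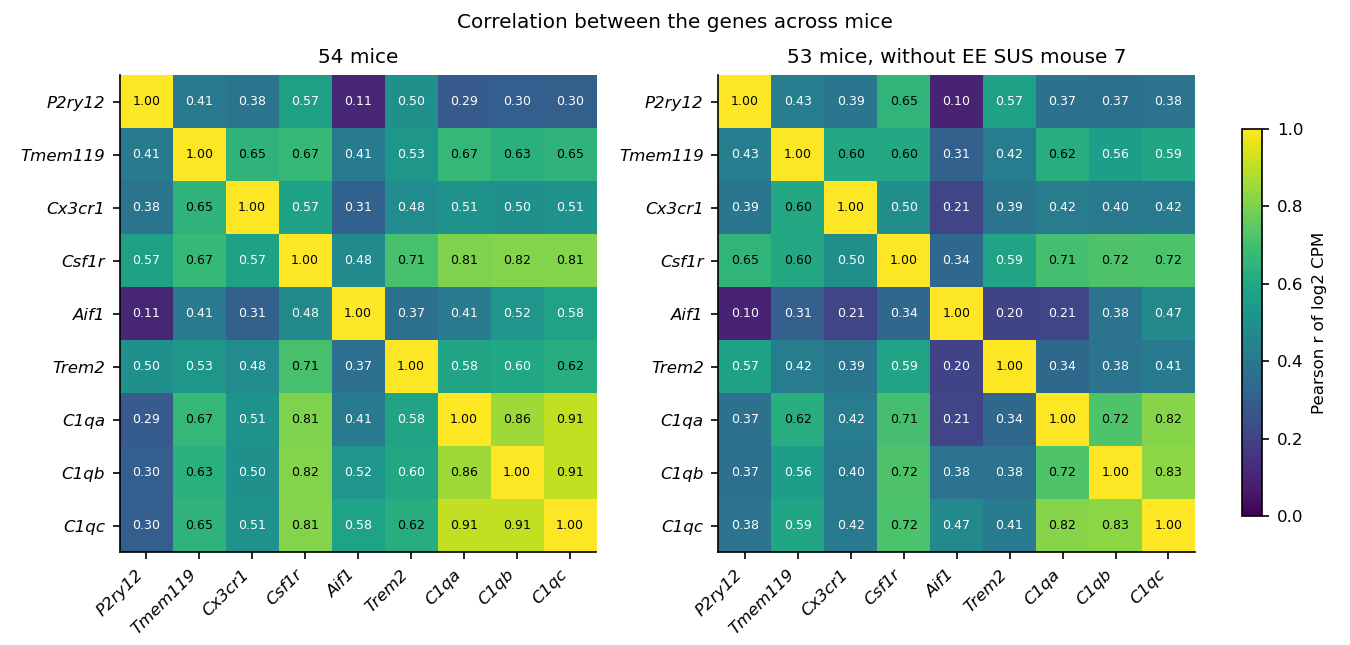
Pearson's r of log2 CPM between each pair of the 9 genes, over 54 mice (left) and over 53 mice without EE SUS mouse 7 (right), with the color scale from 0 to 1. The block of the 3 C1q genes keeps the highest values, 0.86 to 0.91 on the left and 0.72 to 0.83 on the right.

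The genes whose pattern was most like that of the 9 were found by their correlation with the mean z-score of the members over the 54 mice, after removal of the group means. Among the 10 highest were Ctss (r = 0.86), Fcgr3 (0.86), Ly86 (0.85), Itgam (0.81), Glul (0.81), Olfml3 (0.79), Tpm4 (0.78), Tmem176b (0.77) and Adgre1 (0.77). Ctss codes for a lysosomal protease, Fcgr3 for an antibody receptor, Itgam for the alpha chain of complement receptor 3 and Adgre1 for the macrophage marker F4/80. Glul codes for the glutamine synthetase best known from astrocytes, and Tpm4 for a tropomyosin of many cell types. Without EE SUS mouse 7, Fcgr3 (0.80), Glul (0.79), Ctss (0.78), Ly86 (0.77) and Tmem176b (0.75) stayed among the 10 highest, and Itgam (0.67), Olfml3 (0.69), Tpm4 (0.73) and Adgre1 (0.63) did not. The genes that entered were Clu (0.77), Rps15 (0.76), Grm3 (0.73) and B2m (0.73).

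Lists of other genes were read in the same way. The 20 other homeostatic genes of microglia, such as Siglech and Sall1, followed the 9 closely (r = 0.92 between the 2 mean scores, and 0.88 without EE SUS mouse 7). So did, less closely, 16 tested genes of activated microglia (r = 0.75, and 0.78 without that mouse). The 8 astrocyte genes had r = 0.51 and 0.64, the 7 endothelial genes 0.44 and 0.40, and the 8 genes of border-associated macrophages 0.40 and 0.39. The 6 neuronal, 6 thalamic and 8 choroid plexus genes had r of -0.22, -0.35 and -0.16, so that none of these lists rose with the microglial genes. These are descriptions over 54 mice that share 1 total per library.

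None of the 20 other homeostatic genes was called in any of the 14 comparisons, where 0.0% to 2.42% of all genes were. At such shares 0 of 20, like the 0 of 9 above, is not read as a trait of these genes. In EE minus SH their median log2 difference was 0.03, with 15 of 20 higher, and the extremes were Tgfbr1 at -0.13 (adjusted p = 0.076) and Bin2 at 0.17 (adjusted p = 0.19). Without EE SUS mouse 7 the median was 0.02, with 12 of 20 higher. In defeated minus unstressed mice their median was 0.01, with P2ry13 lowest at -0.13 (adjusted p = 0.77) and Cd33 highest at 0.17 (adjusted p = 0.99). Without that mouse the median was -0.004, with 9 of 20 higher. Like the 9 members, the set lay close to 0 in both.

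Of the ligands and partners of the members, 1 of 11 was called in EE minus SH, where 2.42% of all genes were. Csf1, a ligand of Csf1r, ran from 17.1 to 29.6 CPM in the 27 SH mice with a median of 22.7 CPM, and from 17.1 to 26.1 CPM in the 27 EE mice with a median of 21.0 CPM. The ranges overlapped over most of their length. Averaged over phenotypes, Csf1 fell by 0.13 on the log2 scale in EE (SE 0.04, adjusted p = 0.047, edgeR), and the same was found without EE SUS mouse 7 (adjusted p = 0.048). EE RES and EE SUS had medians of 19.8 and 21.0 CPM, below SH RES and SH SUS at 23.3 and 22.6 CPM, while EE and SH controls lay closer, at 22.1 and 22.5 CPM. In the interaction of defeat and housing Csf1 was not called by edgeR. Il34, Cx3cl1, Tyrobp, Apoe and the other partners were not called in any comparison.

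Of the 22 genes of activated and disease-associated microglia, 16 were tested and 2 rose in EE minus SH, where 2.42% of all genes were called. Without EE SUS mouse 7, 1 of 16 did, where 2.83% of all genes were called. B2m, the light chain of MHC class I, was 0.13 higher (SE 0.04, adjusted p = 0.040, edgeR), with a median of 47.5 CPM in SH and 49.7 CPM in EE mice, and without EE SUS mouse 7 it was 0.12 higher (adjusted p = 0.047). Lyz2, a lysozyme of myeloid cells, was 0.41 higher (SE 0.12, adjusted p = 0.047), with medians of 7.67 and 9.78 CPM, but without that mouse it was 0.29 higher and did not pass (adjusted p = 0.059). Lyz2 also passed the edgeR test for any difference among the groups with that mouse (adjusted p = 0.036) and not without it (adjusted p = 0.060). Of all genes 0.35% and 0.388% passed in these 2 fits. B2m is carried by most cell types and Lyz2 by peripheral myeloid cells as well.

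Of the complement pathway beyond C1q, 17 of 18 genes were tested. Of these only C3, the central component that C1q-started cleavage acts on, passed the test for any difference among the groups (adjusted p = 0.048, edgeR). In that test 0.35% of all genes passed, and no gene of the list passed in any of the other 13 comparisons. C3 had group medians of 0.313, 0.259 and 0.484 CPM in SH control, RES and SUS mice and of 0.338, 0.272 and 0.886 CPM in EE control, RES and SUS mice, with overlapping ranges. These levels are near the floor, and the lowest SH control mouse had 0 CPM. EE SUS mouse 7 had 3.97 CPM, above every other mouse, and without it the adjusted p was 0.19. C4b, C3ar1 and Clu were not called in any comparison.

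The lists for other cell types that changed are given for the same comparisons. In EE minus SH the border macrophage gene F13a1 was called with EE SUS mouse 7 (log2 difference 0.24, adjusted p = 0.042) and not without it (0.21, adjusted p = 0.053), and the endothelial gene Flt1, the oligodendrocyte gene Mbp and the lineage gene Olig2 rose, while the granule cell genes Npnt, Dsp and Tdo2 fell. Summed, the 7 oligodendrocyte genes had medians of 1424, 1227 and 1236 CPM in SH control, RES and SUS mice and of 1361, 1483 and 1769 CPM in the EE groups. The share of these in the small EE differences of Tmem119, Cx3cr1 and C1qa was not tested. With the choroid plexus and thalamic scores as covariates 0 of 9 members passed the adjusted threshold in any comparison. In that fit, with EE SUS mouse 7 kept, C1qa was 0.25 higher in EE SUS than in SH SUS, against 0.21 without covariates. Under an unadjusted p of 0.05 (edgeR) were 5 of 9 members in this comparison, against 3 without covariates. In defeated minus unstressed mice the count was 0, against 1. The share of all genes in the fit with covariates is not given here.

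EE SUS mouse 7 was then described gene by gene, with its ratio to the mean of the other 8 EE SUS mice. Ctss (2.20), Itgam (2.13) and Bin2 (2.06) were raised as much as the C1q genes. Trem2 (1.58), Aif1 (1.54), Csf1r (1.36) and Tmem119 (1.28) were raised less, and Cx3cr1 (1.17), P2ry12 (1.04), P2ry13 (1.09), Gpr34 (1.03) and Sall1 (1.08) lay near 1. In all, 13 of the 20 other homeostatic genes were higher in this mouse than in the other 53. Over all genes tested, its 5 farthest from the other mice, in SDs above their mean log2 level, were Itgam, Ctss, C1qa, C1qc and C1qb, at 8.35, 7.98, 7.55, 6.89 and 6.74 SDs.

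**Figure D5:**
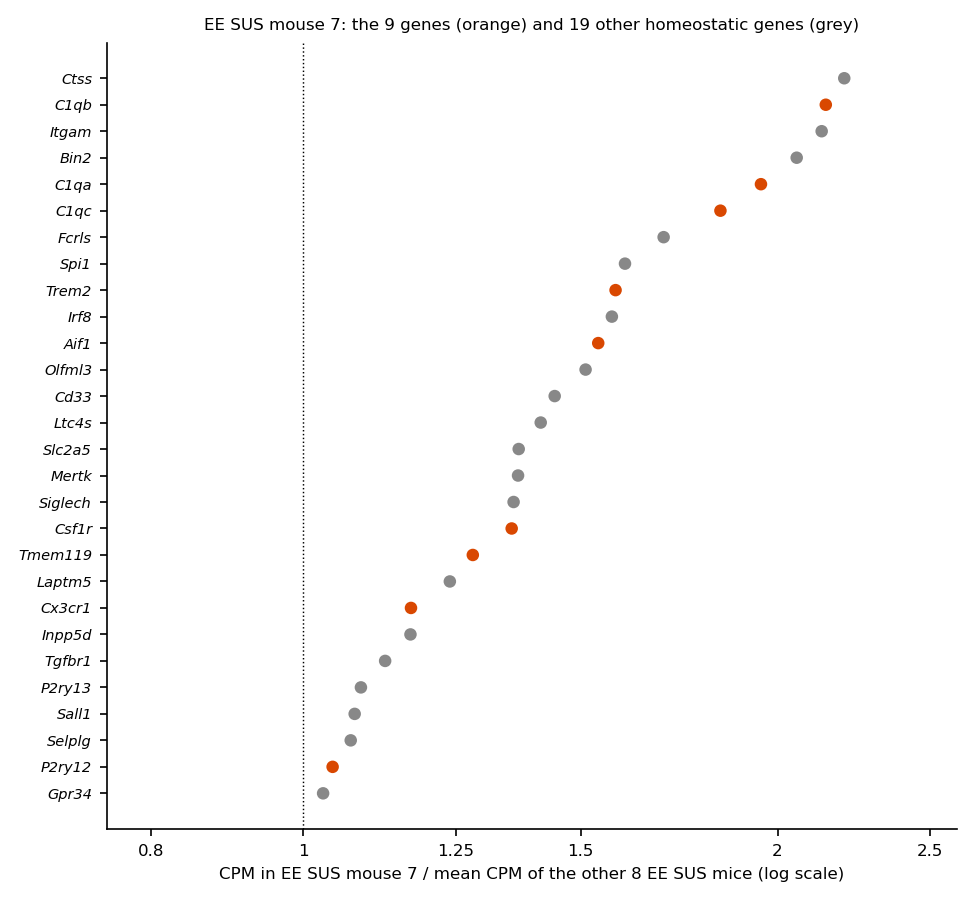
Ratio of the CPM in EE SUS mouse 7 to the mean CPM of the other 8 EE SUS mice (x axis, log scale) for the 9 genes (orange) and 19 other homeostatic genes of microglia (grey). The C1q genes stand at 1.84 to 2.15 and P2ry12 at 1.04, while Ctss is the highest at 2.20.

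The same mouse had the highest level of 7 of 8 monocyte and neutrophil genes. S100a8 and S100a9, which code for the subunits of the neutrophil protein calprotectin, were at 11.1 and 13.3 CPM in it and at most 0.747 and 1.54 CPM in the other mice. Ccr2, the chemokine receptor of inflammatory monocytes, was at 3.72 CPM against at most 2.45 CPM, and Chil3 at 4.26 CPM against at most 0.666 CPM. The summed level of the 8 genes was 38.8 CPM in this mouse and 0.649 to 6.84 CPM in the other 53, while its red cell sum of 52.4 CPM was the second lowest of the 54. Of the 7 endothelial genes 3 (Cldn5, Pecam1 and Ly6c1) were highest in this mouse, and their sum of 215 CPM ranked 3 of 54 mice. None of the 8 lymphocyte, 8 choroid plexus, 8 astrocyte or 6 neuronal genes was at its highest in this mouse. The lymphocyte genes lay near the floor, with a sum of 0.539 CPM in it and 1 of 8 past the low-count filter, so their ranks say little. The part of blood-derived myeloid and of endothelial cells in the C1q levels of this mouse was not tested.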

How the data were processed

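Gene counts of 55 libraries were used, as deposited. Per the labels and methods, the authors made stranded libraries of total RNA from single mice, removed low-quality reads and aligned the rest to GRCm38 (mm10). The methods name featureCounts, but the deposited files have the layout of STAR gene counts, whole read pairs per gene without normalization. The reverse-strand column was used, since the forward strand held 3.51% to 4.13% of the stranded counts, and of the read pairs 13.9% to 19.9% unmapped, 8.70% to 12.1% multimapping, 19.9% to 28.8% in no gene and 0.836% to 1.12% ambiguous were left out. The methods state fewer replicates than most labelled groups hold; every labelled mouse was used. Of 45318 identifiers 44671 matched the annotation. The libraries held 32223034 to 49990637 read pairs.

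The 2 runs of EE control mouse 9 (r = 0.999 of log2 CPM) were summed. Genes were filtered with filterByExpr and scaled by TMM, and 1 edgeR 4.0.16 quasi-likelihood fit over the 6 groups (R 4.3.3) gave 14 comparisons, with Benjamini-Hochberg adjustment over all 18283 genes. limma 3.58.1 (voom) and DESeq2 1.42.0 were alternatives, besides other scalings and filters, unstranded counts, each housing alone, a replicate block, tissue scores as covariates and each mouse left out. Correlations used log2 CPM (prior count 2) and two-sided tests with 100000 permutations (Python 3.11.15, NumPy 2.4.6, pandas 2.3.3, SciPy 1.17.1; matplotlib 3.10.9 for plots). The fit was tested on simulated data. The genes named are the 9 members, list genes past the threshold or at the extremes of their list, and the 10 genes nearest to the members; any other gene was picked with its values in view. A few genes under this rule are not reported here. The members and the 17 lists were chosen with earlier results of these data known. Counting errors cover read sampling only, and p-values the spread between mice.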

Additional observations from a re-analysis of the deposited data

Results flagged for a closer look

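Of the 54 sets made by the 9 genes and 6 groups, 8 held a mouse whose gap to the nearest of its group was large for the group's range (Dixon's 95% critical value), where chance flags about 1 in 20. EE SUS mouse 7 gave 5 of them: C1qa at 82.4 CPM (next 46.2), C1qb at 68.1 CPM (next 38.7), C1qc at 67.0 CPM (next 40.7), Csf1r at 142 CPM (next 112) and Trem2 at 14.1 CPM (next 10.2). SH SUS mouse 1 gave 2, with C1qb at 38.3 CPM (next 33.2) and C1qc at 42.2 CPM (next 36.3). EE control mouse 7 gave the last, with P2ry12 at 51.0 CPM (next 40.8).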

How the results depend on the processing

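The number of members called stayed at 0 in all 14 comparisons under each of the 12 other settings and without each of the 54 mice in turn, wherever the setting could give the comparison. The median member difference moved by less than 1 SD between mice under each of these, but in EE SUS minus EE control it turned from 0.05 to -0.05 on the log2 scale without EE SUS mouse 7. C1qa in EE SUS minus SH SUS ran from 0.07 without that mouse to 0.25 with the tissue scores as covariates. Of the 54 group levels recomputed with unstranded counts 53 stayed within 1 SD, and Cx3cr1 in EE controls moved from 54.7 to 56.8 CPM. Depth limits Aif1 and Trem2 most. The fit without EE SUS mouse 7 in the correlations, with a median r of 0.42, was chosen after seeing the data.

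Whether replicate numbers pair the mice was not settled. Deviations of same-numbered mice of different groups had a median correlation of 0.026 (range -0.258 to 0.44). For mice of other numbers it was -0.004 (range -0.355 to 0.492). Of the 54 mice 9 were closest to a mouse of their own number, and the number expected by chance was not computed. With the replicate block 0 members were called, and C1qa in EE SUS minus SH SUS was 0.20. Over all genes the block moved the count from 50 to 228 in EE RES minus SH RES and from 442 to 581 in EE minus SH. In defeated minus unstressed mice it went from 8 to 7, and in SH SUS minus SH control from 6 to 5.

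Counts over all genes did move. As few of all genes were called under any setting, the count over the members had little room to leave 0. EE RES minus SH RES gave 50 genes, but 245 by DESeq2, 112 by limma with quality weights, 228 with the replicate block, 27 by library size alone, 24 without a low-count filter and 18 in those 2 groups alone. EE minus SH gave 442, but 680 by DESeq2, 741 with quality weights and 242 without a filter. The test for any difference gave 64, but 183 by DESeq2, 129 with quality weights, 40 by limma and 34 by library size alone. Defeated minus unstressed gave 8, and 13 by DESeq2, and SH SUS minus SH control gave 6, and 1 by limma with or without weights. EE minus SH gave 1 in controls and 1 in SUS mice, and 0 to 2 under the settings that changed them.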
